A study of Homo sapiens with 2 samples.

Results

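The 50 genes described here encode the machinery that licenses, starts and carries out DNA replication in S phase, with the enzymes that supply its nucleotides. They were chosen by name for their known roles, with earlier results of these data known, and fall into 13 complexes or functional groups. All 50 had a row among the 50868 genes of the deposited table. Messenger RNA had been sequenced from 2 cultures labelled HepG2, a line derived from a human liver cancer. The parental culture had received no treatment. The resistant culture came from the same line and had been selected with sorafenib, a multikinase inhibitor used in liver cancer, from 2.5 µM in steps of 0.5 µM to 7 µM, at which the cells proliferated. Each group held 1 library, so no difference has a replicate check and no test of the conditions was made. The labels do not say whether the resistant cells were 1 clone, or whether the drug was present at harvest.

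The libraries held 18067146 (parental) and 16811907 (resistant) counts. Levels are given as CPM, counts scaled to a common library size after a correction for library composition. Of all genes in the table, 14686 were measured, meaning at least 1 CPM in either library. Markers of the labelled cell type were nearly absent: 8 of 10 hepatocyte and HepG2 markers, ALB and AFP among them, had 0 counts in both libraries, and none of the 10 was measured. Their summed counts were 3 (parental) and 4 (resistant). Of 8 fibroblast markers 5 were measured, with sums of 397 and 403 CPM, while COL1A2 and PDGFRA were at 0 in both. Of 3 endothelial markers 1 was measured (sums of 1.82 and 4.71 CPM), and of 3 leukocyte markers none was. The 2 libraries are therefore called by their labels only.

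Replication is licensed in G1, when the origin recognition complex (ORC), CDC6 and CDT1 load the MCM2-7 helicase onto DNA as an inactive double ring. At the start of S phase the CDC7 kinase and cyclin-dependent kinases allow CDC45 and the GINS complex to join MCM2-7, which turns it into the active helicase, and polymerases alpha, epsilon and delta then synthesise DNA with the sliding clamp PCNA. Many of these genes are transcribed late in G1 by E2F factors, which are held back by the retinoblastoma protein, so that their RNA is abundant in proliferating cultures. In bulk RNA, fewer cells in S phase and less RNA per cell cannot be told apart.

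Promoter sequences are shown because E2F binding sites are the feature for which these genes are best known. RefSeq windows on GRCh38.p14, from 250 bases before to 50 bases after a transcription start, were matched for 44 of 50 members, and 10 of those had more than 1 window, giving 56 windows. GINS4, MCM4, MCM5, POLD3, RPA2 and RPA3 were not matched. The windows of the 3 lowest members with a match and of the highest are printed 5′ to 3′ on the gene's strand. Capitals mark the E2F letters searched, TTTCCCGC, TTTCGCGC, TTTGCCGC or TTTGGCGC on either strand.
PCNA (chr20:5126573-5126872, minus strand): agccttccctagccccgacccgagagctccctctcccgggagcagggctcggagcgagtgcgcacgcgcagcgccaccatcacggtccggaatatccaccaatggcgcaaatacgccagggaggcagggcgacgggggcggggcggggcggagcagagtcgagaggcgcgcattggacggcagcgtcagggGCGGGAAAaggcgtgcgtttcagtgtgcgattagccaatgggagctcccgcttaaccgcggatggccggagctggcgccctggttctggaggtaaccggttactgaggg
LIG1 (chr19:48170295-48170594, minus strand): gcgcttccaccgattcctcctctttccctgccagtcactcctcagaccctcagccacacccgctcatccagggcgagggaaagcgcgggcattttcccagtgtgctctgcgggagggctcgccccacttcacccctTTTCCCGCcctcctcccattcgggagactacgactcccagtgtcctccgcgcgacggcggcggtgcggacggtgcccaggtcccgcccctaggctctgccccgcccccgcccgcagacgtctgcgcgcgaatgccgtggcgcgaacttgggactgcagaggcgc
MCM6 (chr2:135876394-135876693, minus strand): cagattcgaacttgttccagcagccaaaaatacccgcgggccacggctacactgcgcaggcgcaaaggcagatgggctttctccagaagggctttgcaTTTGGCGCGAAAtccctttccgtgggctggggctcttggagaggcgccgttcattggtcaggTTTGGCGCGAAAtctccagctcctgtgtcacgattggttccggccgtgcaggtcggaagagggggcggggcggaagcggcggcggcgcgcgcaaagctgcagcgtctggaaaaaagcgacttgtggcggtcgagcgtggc
RFC2 (chr7:74254350-74254649, minus strand): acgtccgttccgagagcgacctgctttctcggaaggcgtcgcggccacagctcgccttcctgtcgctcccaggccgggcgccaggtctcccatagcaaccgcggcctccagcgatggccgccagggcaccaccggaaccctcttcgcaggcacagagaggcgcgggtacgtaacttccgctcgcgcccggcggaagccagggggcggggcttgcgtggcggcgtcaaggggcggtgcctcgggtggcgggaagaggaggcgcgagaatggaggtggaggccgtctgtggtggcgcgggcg
PCNA had 2 windows. The printed one held 1 match and the other none; the match lies on the opposite strand. The LIG1 window held 1 match. MCM6 held 4 matches as 2 overlapping pairs, since each capital stretch reads TTTGGCGC forward and TTTCGCGC in reverse. RFC2 held none.

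Every member was well within the range of measurement. All 50 had at least 10 CPM in both libraries, from POLE2 (218 parental and 177 resistant counts) to RRM1 (30759 and 29448 counts). Their median level was 101 CPM (parental) and 93.9 CPM (resistant), beside a parental median of 26.0 CPM over all measured genes. Together they held 0.844% of parental and 0.805% of resistant counts, and RRM1 alone held 20.2% of the members' parental counts.

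As a list, the replication genes were slightly lower in the resistant library, most of them by a small amount. The log2 ratio, resistant over parental after adding 1 CPM to both, was below 0 for 35 members and above 0 for 15. This share of 70% stood beside 50.3% of all measured genes and 51.5% of genes at 10 CPM or more. The median log2 ratio was -0.09, beside -0.0018 over all measured genes and -0.0061 over genes at 10 CPM or more. The quartiles of the list were -0.17 and 0.02. Those of all measured genes were -0.15 and 0.16, and those of genes at 10 CPM or more -0.14 and 0.13. Both quartiles of the list thus lay below those of either set. The summed counts of all members were at 0.959-fold (95% counting interval 0.952 to 0.967), and at 0.940-fold (0.933 to 0.948) without RRM1. Each fold is a ratio of CPM, and the bracketed ranges are exact Clopper-Pearson intervals. They cover counting error only: PCR copies are not independent molecules, and variation between cultures is not in them.

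**Figure D1:**
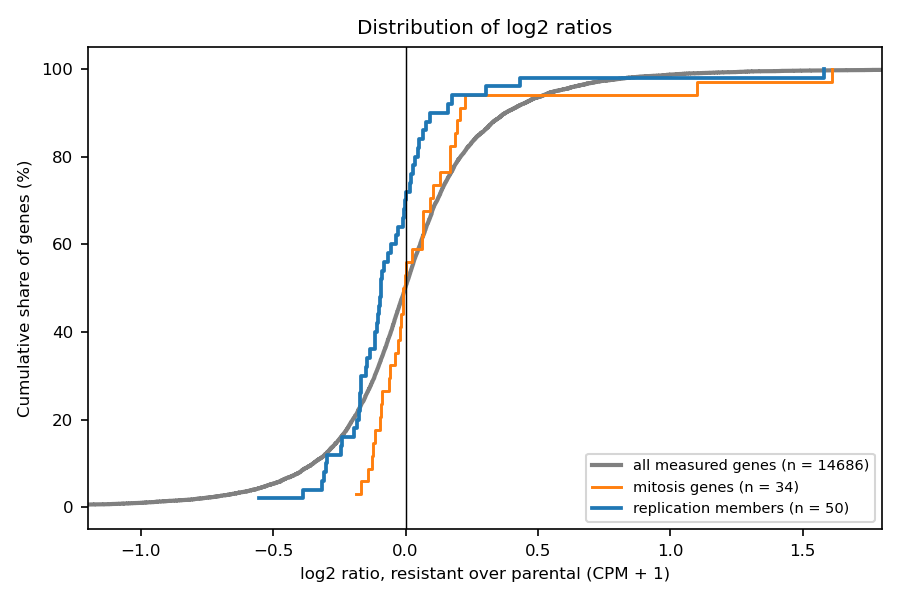
Cumulative share of genes (%) against the log2 ratio of resistant over parental CPM + 1, for the 50 replication genes (blue), 34 genes of mitosis (orange) and 14686 measured genes (grey). The blue curve crosses 0 at 70% of its genes and the grey curve at 50.3%; the last blue step is GINS4, and the last 2 orange steps are FOXM1 and MKI67. Genes beyond the ends of the axis are not drawn.

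Few members differed by much. At 0.8-fold or less stood 2 of 50, MCM5 and PCNA, where 13.4% of all measured genes and 8.85% of genes at 10 CPM or more did so. At or above the inverse of 0.8-fold stood 2 of 50, GINS4 and RFC2, beside 15.2% of all measured genes and 9.60% of those at 10 CPM or more. A log2 ratio at or past 1 in either direction was reached by 1 member, GINS4, and by 2.30% of measured genes. LIG1 at 0.802-fold and MCM6 at 0.807-fold lay just outside the lower limit, and POLD2 at 1.24-fold just outside the upper one. The counting interval lay wholly below 1 for 23 of 50 members, beside 21.2% of measured genes and 25.0% of genes at 10 CPM or more. It lay wholly above 1 for 6 members, beside 21.1% and 23.8%, and held 1 for the other 21. Members were also split by their parental level, which itself enters the ratio: the median log2 ratio was -0.01 for the 8 members under 50 parental CPM, -0.09 for the 28 members at 50 to 150 CPM and -0.17 for the 14 above 150 CPM. In the authors' deposited table GINS4 was marked as higher and the other 49 members were not called in either direction.

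**Figure D2:**
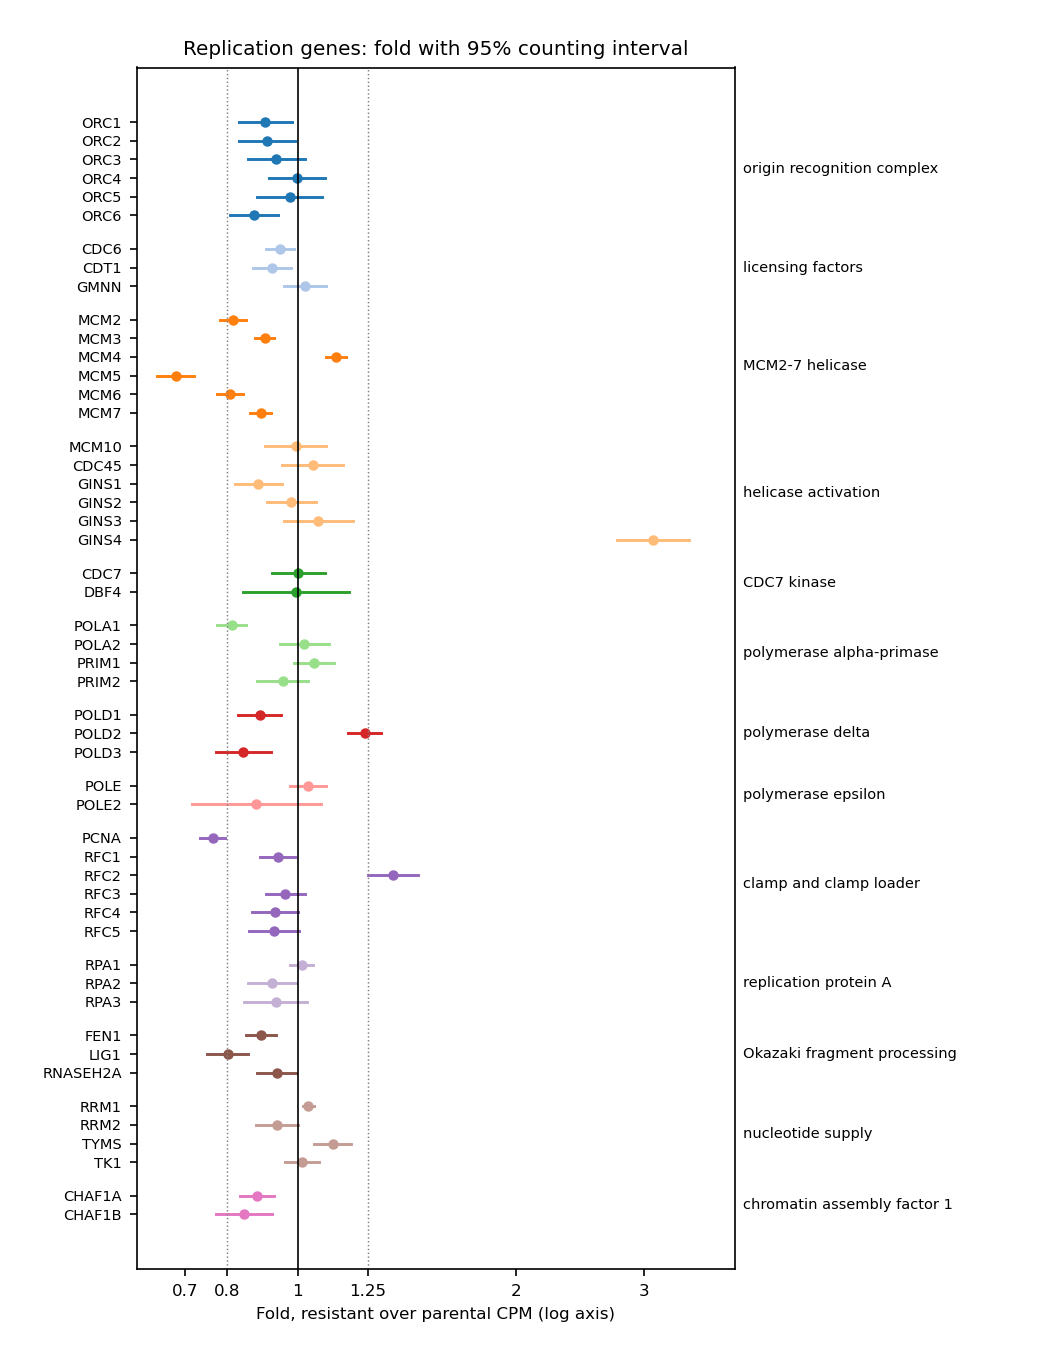
Fold of resistant over parental CPM (log axis) for each of the 50 genes, coloured by complex, with lines for the 95% counting interval. Dotted lines stand at 0.8 and its inverse. MCM5 at 0.679-fold and PCNA at 0.765-fold lie left of the dotted lines, and RFC2 at 1.35-fold and GINS4 at 3.08-fold lie right of them.

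The MCM2-7 helicase, the ring of 6 related subunits that unwinds the double helix, was lower in the resistant library at most subunits: 5 of 6 had intervals wholly below 1, and 1 had an interval wholly above 1. MCM5 (chromosome 22, 35400063 to 35425430, plus strand), the subunit at the gate with MCM2 through which the ring opens, had 3025 parental and 1900 resistant counts, or 167 and 113 CPM. Its fold of 0.679 (0.641 to 0.719) was the lowest of all 50 members. MCM6 had 5338 and 3986 counts, at 0.807-fold (0.775 to 0.841), and MCM2 had 5299 and 3990 counts, at 0.814-fold (0.781 to 0.848). The subunits MCM7 and MCM3 lay nearer to 1. MCM7 had 7839 and 6454 counts, at 0.890-fold (0.861 to 0.920), and MCM3 had 9458 and 7883, at 0.901-fold (0.874 to 0.928). MCM4 went the other way, with 8195 parental and 8560 resistant counts, at 1.13-fold (1.10 to 1.16). The summed counts of the ring were at 0.905-fold (0.892 to 0.918), and at 0.845-fold (0.831 to 0.860) without MCM4. MCM7 shares 392 exon bases with AP4M1 on the opposite strand, whose counts (212 and 174) were small beside its own. MCM2 shares 1113 exon bases with an antisense gene that had no row, so its counts are unknown. It also shares 45 with TPRA1 on the opposite strand (807 and 649 counts).

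The 6 MCM subunits enter the ring in equal numbers, but their RNA levels were unequal in both libraries and further apart in the resistant one. On CPM per kilobase of the longest coding transcript, MCM5 was the lowest in both, at 47.2 (parental) and 32.1 (resistant). The highest was MCM3 in the parental library (163) and MCM4 in the resistant one (162). The highest level was 3.44 times the lowest among parental values and 5.04 times among resistant ones. On the deposited FPKM, which divides by another gene length, these ratios were 5.35 and 7.10, MCM3 was highest in both libraries, and MCM4 ranked 5th and then 3rd. MCM5 was thus the lowest subunit in both libraries on both scales, while the rank of MCM4 depends on the length used.

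Origin recognition and licensing genes were slightly lower in sum in the resistant library, and all 6 ORC genes had a log2 ratio below 0. ORC6, a small subunit needed for helicase loading, had the lowest ratio of the ORC genes, with 1503 and 1212 counts, at 0.872-fold (0.807 to 0.941). ORC1, the subunit that binds and leaves in each cycle, had 1216 and 1015 counts, at 0.902-fold (0.829 to 0.982), and ORC2 had 1103 and 927, at 0.908-fold (0.832 to 0.992). The core subunits ORC3, ORC4 and ORC5 were between 0.934 and 0.999-fold, and their intervals held 1. CDC6, the loader ATPase, had 4321 and 3778 counts, at 0.945-fold (0.905 to 0.988). CDT1, which brings MCM2-7 to the origin, had 2384 and 2032 counts, at 0.921-fold (0.868 to 0.978). Geminin (GMNN), the inhibitor of CDT1, did not share their direction, with 1817 and 1722 counts, at 1.02-fold (0.959 to 1.09). The summed ORC genes were at 0.925-fold (0.893 to 0.958) and the 3 licensing factors at 0.955-fold (0.926 to 0.986).

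Among the genes that turn the loaded helicase into an active one, GINS4 stood apart and its partners did not. GINS4 (chromosome 8, 41529206 to 41545046, plus strand), also known as SLD5, had 409 parental and 1166 resistant counts, or 22.6 and 69.6 CPM. Its fold was 3.08 (2.75 to 3.46) and its log2 ratio 1.58, at the 99.7th percentile of all measured genes. The other 3 subunits of the GINS complex, which holds CDC45 on MCM2-7, were between 0.883 and 1.07-fold. GINS1 had 1541 and 1259 counts, at 0.883-fold (0.819 to 0.952), GINS2 had 1350 and 1224, and GINS3 had 658 and 650, the intervals of the last 2 holding 1. CDC45 had 864 and 838 counts, at 1.05-fold (0.952 to 1.15). MCM10, needed to activate the assembled helicase, had 892 and 820 counts, at 0.994-fold. The summed counts of these 6 genes were at 1.13-fold (1.09 to 1.17), and without GINS4 at 0.976-fold (0.939 to 1.02), which holds 1.

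Levels per length within this group were more even in the resistant library. GINS4 was the lowest of the 6 genes in the parental library, at 5.88 CPM per kilobase, where the others ranged from 15.6 to 27.9. In the resistant library it was at 18.1, within the range of the others (15.5 to 27.3). The highest gene was 4.74 times the lowest among parental and 1.76 times among resistant values, and on the deposited FPKM these ratios were 10.9 and 5.98. GINS4 held 4.92% of the group's summed level per length in parental and 13.9% in resistant cells.

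**Figure D3:**
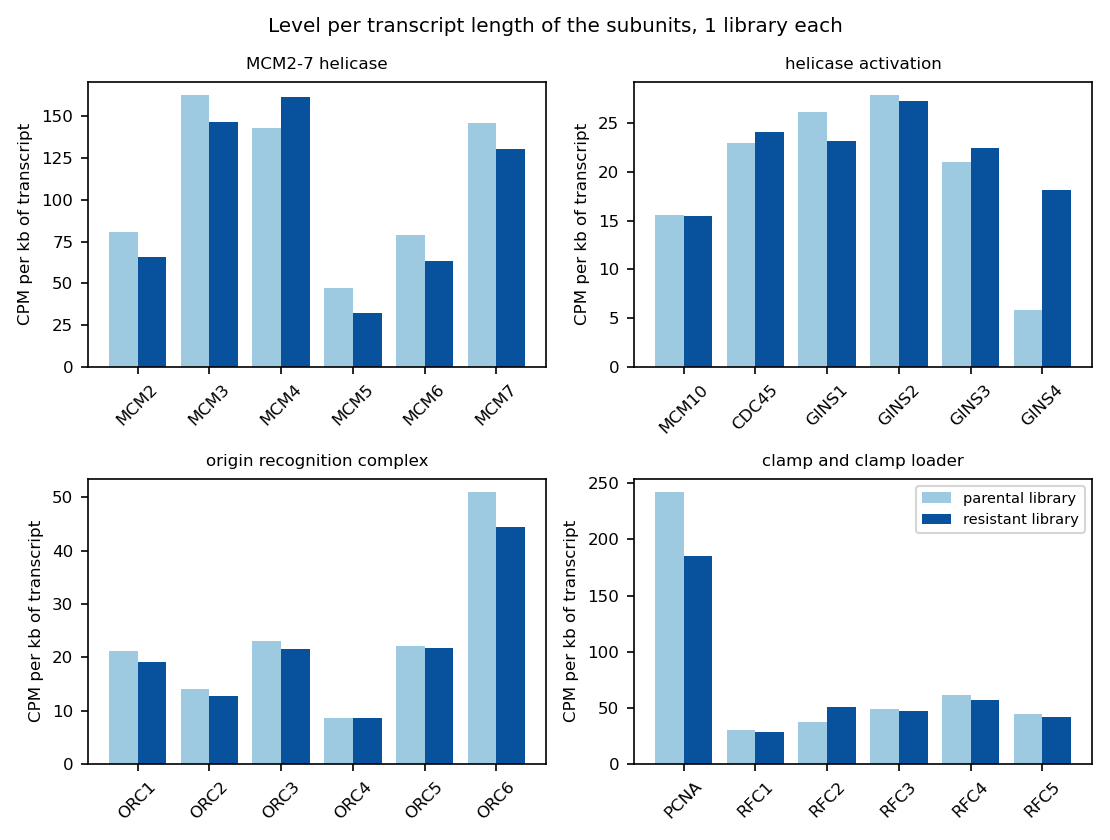
CPM per kilobase of the longest coding transcript for the subunits of 4 complexes, with the parental library in light and the resistant library in dark blue. Bars start at 0 and each stands for 1 library, so they carry no error bars. GINS4 was the lowest of the helicase activation genes in the parental library (5.88) and within their range in the resistant one (18.1), and MCM5 was the lowest MCM subunit in both.

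The difference of GINS4 was not shared by the genes around it. Within 1 Mb, 10 other genes were measured, with a median log2 ratio of -0.03 and a range from -0.47 to 0.59, and none reached a log2 ratio of 1 in either direction. The closest on either side, GOLGA7 and GPAT4, were at 1.02-fold (0.928 to 1.12) and 0.988-fold (0.924 to 1.06). The exons of GINS4 overlap those of 2 antisense genes, and both had 0 counts in both libraries. MCM4, the other member on chromosome 8, had 5 measured neighbours with a median of -0.07.

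**Figure D4:**
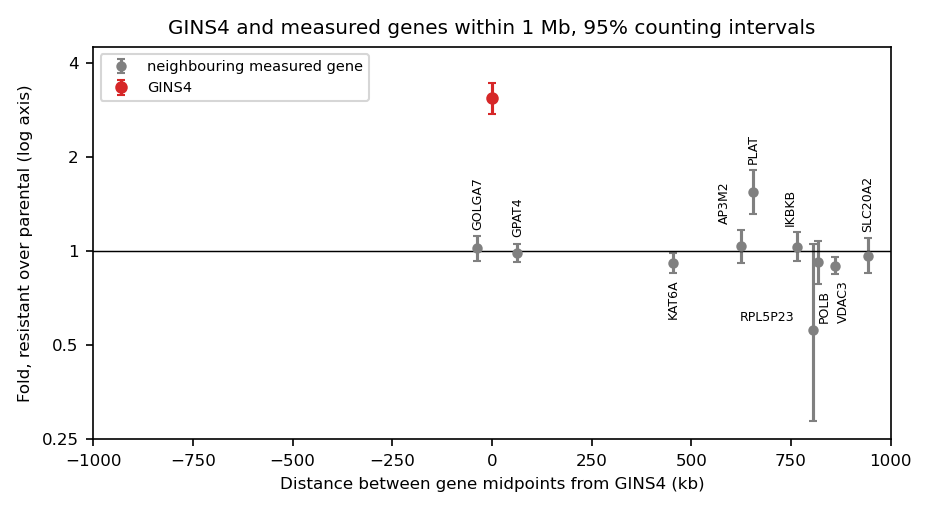
Fold of resistant over parental CPM (log axis) for GINS4 (red) and the 10 measured genes within 1 Mb (grey), against the distance between gene midpoints in kb. Lines are 95% counting intervals. GINS4 is at 3.08-fold, and the next highest gene, PLAT, at 1.54-fold.

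The CDC7 kinase, which phosphorylates MCM2-7 to start replication, had a summed fold of 1.001 (0.929 to 1.08), whose interval held 1. CDC7 had 1178 and 1092 counts, at 1.002-fold (0.922 to 1.09). Its activator DBF4 had 301 and 277 counts, at 0.995-fold (0.842 to 1.17). The interval of DBF4 was wide enough to hold the ratio of most other members.

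Polymerase alpha-primase lays down the RNA and DNA primers, and of its 4 genes only that of the catalytic subunit had an interval that left out 1. POLA1 (chromosome X, 24693919 to 24996986, plus strand) had 4239 and 3181 counts, or 234 and 189.8 CPM, at 0.811-fold (0.774 to 0.850). Its partner POLA2, with 1333 and 1259 counts, and the primase subunits PRIM1, with 1927 and 1879, and PRIM2, with 1291 and 1139, were between 0.954 and 1.05-fold, and all 3 intervals held 1. The sum of the 4 genes was at 0.917-fold (0.889 to 0.946). POLA2 shares 2012 exon bases, and PRIM1 362, with same-strand genes that had no row, so the counts of those genes are unknown.

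The subunits of polymerase delta, which synthesises the lagging strand, differed in direction. POLD2, the accessory subunit that links the catalytic subunit to the others, had 2543 and 2908 counts, at 1.24-fold (1.17 to 1.304). The catalytic subunit POLD1 had 1859 and 1524 counts, at 0.886-fold (0.828 to 0.949), and POLD3, which binds PCNA, had 1168 and 910, at 0.842-fold (0.771 to 0.919). Their sum, at 1.04-fold (0.998 to 1.08), held 1. Polymerase epsilon of the leading strand was at 1.02-fold in sum (0.968 to 1.08), with the catalytic POLE at 2489 and 2382 counts and POLE2, the lowest member by CPM, at 218 and 177.

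PCNA, the ring that keeps polymerases on DNA, was the member with the second lowest ratio, while the loader that closes it was not lower in sum. PCNA (chromosome 20, 5114953 to 5126626, minus strand) had 5961 parental and 4216 resistant counts, or 329 and 252 CPM, at 0.765-fold (0.735 to 0.795). The loader subunit RFC2 (chromosome 7, 74231499 to 74254458, minus strand) had 1156 and 1447 counts, or 63.8 and 86.3 CPM, at 1.35-fold (1.252 to 1.46). The remaining loader genes lay below 1. RFC1, the large subunit, was at 0.939-fold (0.888 to 0.993). RFC3, RFC4 and RFC5 were between 0.927 and 0.962-fold, and their intervals held 1. Replication factor C as a sum was at 0.995-fold (0.965 to 1.03). With PCNA the sum was at 0.903-fold (0.881 to 0.924).

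Replication protein A coats single-stranded DNA, and its large subunit RPA1 had 6443 and 6035 counts, at 1.01-fold (0.977 to 1.05). RPA2, the subunit phosphorylated after replication stress, had 1496 and 1275 counts, at 0.921-fold (0.854 to 0.993), and the small subunit RPA3 had 859 and 741, at 0.933-fold (0.844 to 1.03). All 3 genes of Okazaki fragment processing, which joins the pieces of the lagging strand, were lower. LIG1, the DNA ligase, had 2190 and 1624 counts, at 0.802-fold (0.751 to 0.855). FEN1, the flap nuclease, had 3809 and 3137, at 0.890-fold (0.849 to 0.934). RNASEH2A, the catalytic subunit of an enzyme that removes RNA from DNA, had 2171 and 1880, at 0.936-fold (0.880 to 0.996). It shares 1123 exon bases with a same-strand gene that had no row. The sum of these 3 genes, 0.879-fold (0.851 to 0.908), lay near that of chromatin assembly factor 1, which deposits histones behind the fork, at 0.870-fold (0.831 to 0.911). Its large subunit CHAF1A had 3054 and 2486 counts, at 0.880-fold (0.834 to 0.928), and CHAF1B had 1132 and 884, at 0.844-fold (0.772 to 0.923).

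The genes of nucleotide supply were slightly higher in sum. RRM1, the large subunit of ribonucleotide reductase, which makes deoxyribonucleotides, had a parental level of 1698 CPM and a resistant level of 1757 CPM, at 1.03-fold (1.02 to 1.05). Its small subunit RRM2, the S phase partner, had 1924 and 1666 counts, at 0.936-fold. RRM2 shares 1077 exon bases with a same-strand gene that had no row. Per length, RRM1 was far above RRM2, at 552 against 28.9 CPM per kilobase in parental and 571 against 27.1 in resistant cells. TYMS, thymidylate synthase, had 2212 and 2287 counts, at 1.12-fold (1.05 to 1.18). It shares 967 exon bases with ENOSF1 on the opposite strand, which had 1511 and 1479 counts, and no source used here says whether counting used strand. TK1, thymidine kinase, had 2848 and 2672 counts, at 1.01-fold (0.962 to 1.07). The 4 genes summed to 1.03-fold (1.02 to 1.05), and without RRM1 to 1.03-fold (0.991 to 1.06).

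**Figure D5:**
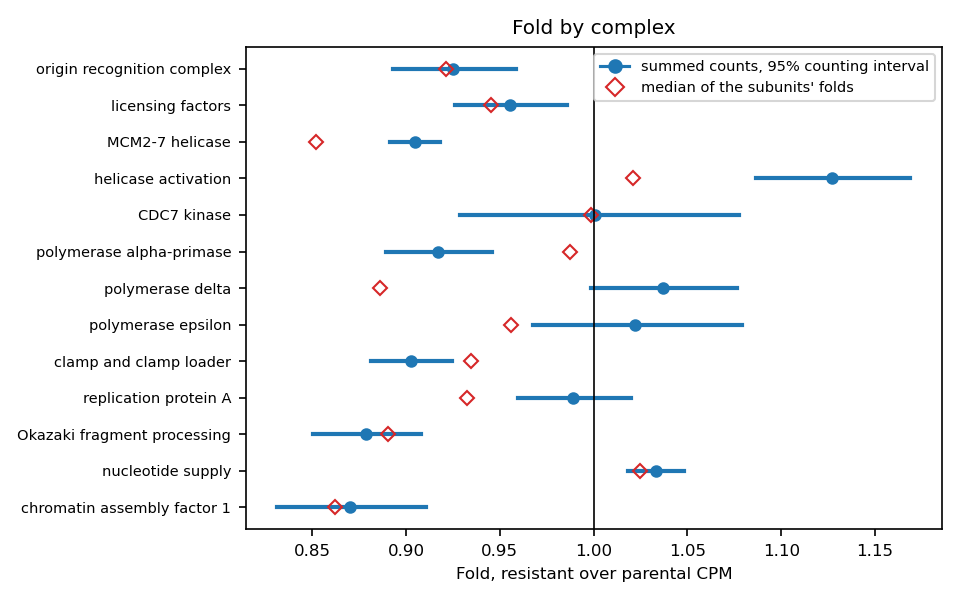
Fold of resistant over parental CPM for the summed counts of each of the 13 complexes (blue points, lines for 95% counting intervals) and the median of the subunits' folds (red diamonds). The point and the diamond lie apart for helicase activation, where GINS4 raises the sum (1.13-fold), and for polymerase delta, where POLD2 does. They also lie apart, by less, for polymerase alpha-primase (sum 0.917, median 0.987) and polymerase epsilon (1.02 and 0.956). The same holds for replication protein A (0.989 and 0.932) and MCM2-7 (0.905 and 0.852).

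E2F letters were common in the promoters of the members, and the median ratios of members with and without them lay close together. Of 56 member windows 35.7% held at least 1 match, beside 3.31% of all 35116 windows of the same length. Matches were in all 4 MCM2-7 genes with a window (MCM2, MCM3, MCM6 and MCM7), in all 3 licensing factors and in both polymerase epsilon genes, and in none of the polymerase delta and chromatin assembly factor 1 genes with one. The 20 members with a match had a median log2 ratio of -0.11, with 14 below 0, and the 24 without a match had a median of -0.08, with 17 below 0. Neither group holds the 6 members without a window, among them GINS4 and MCM5, the highest and the lowest of all members. The CCAAT box, letters CCAAT, was in 55.4% of member windows and 34.6% of all, and the GC box, GGGCGG, in 71.4% and 44.95%. The letters of the CHR element, TTTGAA, known from promoters of mitotic genes, were in 3.57% and 15.2%. Each was searched on both strands, and a match is a description of letters, not a bound site.

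Genes that control entry into S phase differed in both directions. Of 36 measured genes of G1/S control 21 had a log2 ratio below 0 and 15 above, with a median of -0.06. At 0.8-fold or less stood 3, and 4 at its inverse or more. Beside this and the following lists, 50.3% of all measured genes were below 0. Of the measured genes 13.4% were at 0.8-fold or less and 15.2% at its inverse or more. Among genes at 10 CPM or more these shares were 8.85% and 9.60%. E2F3, an activating E2F factor, had 2420 and 1126 counts, at 0.503-fold (0.468 to 0.540), and E2F1 had 917 and 641, at 0.756-fold (0.682 to 0.837). CDK6, a kinase that phosphorylates the retinoblastoma protein, had 5585 and 8068 counts, at 1.56-fold (1.51 to 1.62), and its partner cyclin D1 (CCND1) had 3301 and 4380, at 1.43-fold (1.37 to 1.501). CDKN2A, whose product p16 inhibits that kinase, had 1927 and 3287 counts, at 1.84-fold (1.74 to 1.95).

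The other replication and fork factors varied less. Of 28 measured, 16 were below 0 and 12 above, with a median log2 ratio of -0.03, and none was at 0.8-fold or less, or at its inverse or more. The nuclease and helicase DNA2 was at 0.805-fold (0.719 to 0.901), MCM9 at 0.826-fold, the ORC-associated LRWD1 at 1.20-fold and TIPIN, a fork protection factor, at 1.19-fold. Of 16 genes of chromatin replication 10 were below 0, with a median of -0.07, and the 4 largest differences, in HAT1 (0.845-fold), SLBP (0.861-fold), ASF1A (0.885-fold) and RBBP4 (0.890-fold), were all on the lower side. HAT1 acetylates new histones, SLBP binds histone mRNA, and ASF1A and RBBP4 carry histones.

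Nucleotide synthesis beyond the members was mixed, with 16 of 30 genes below 0 and a median of -0.03. ADSL, of purine synthesis, had 1092 and 1578 counts, at 1.56-fold (1.45 to 1.69), and CTPS1, which makes CTP, was at 1.38-fold. DUT, which removes dUTP, was at 0.783-fold (0.735 to 0.834) and PFAS, also of purine synthesis, at 0.812-fold. Among 24 genes of the S phase checkpoint and repair, 12 lay on either side of 0. The interval lay wholly below 1 for 5 and wholly above 1 for 5, beside 21.2% and 21.1% of all measured genes. At 0.8-fold or less stood 1 gene and at its inverse or more none, beside 13.4% and 15.2%. On the higher side, WEE1, a kinase that restrains entry into mitosis, HUS1, of the checkpoint clamp, and MSH6, of mismatch repair, were between 1.16 and 1.19-fold.

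Of 34 genes of mitosis 18 were below 0, with a median log2 ratio of -0.01, beside -0.09 for the replication genes; no test of this difference was made. The list held both MKI67, with 2552 and 7252 counts, at 3.07-fold (2.94 to 3.21), and FOXM1, with 1957 and 3904, at 2.16-fold (2.04 to 2.28). Without these 2 genes the range was 0.876 to 1.17-fold, with PLK1, a mitotic kinase, at its top and MAD2L1, of the spindle checkpoint, at 1.16-fold (1.08 to 1.24). No replication gene other than GINS4 reached the ratio of FOXM1.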

How the data were processed

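RNA of 1 parental and 1 resistant culture was compared. The deposited table holds whole-number counts per gene, per the file headers, not normalized. The authors also deposited FPKM and, in a further table, a log2 fold change with a p-value and q-value, per the file headers; these p-values and q-values compare 1 library with 1 library and were not used. Per the submitters' processing notes, bcl2fastq 2.19, HISAT2 2.0.4, StringTie 1.3.0 and build GRCh38 were used. The sources used here do not give the annotation release, the counting settings or the use of strand.

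Counts (18067146 and 16811907 in total) were scaled to CPM with TMM factors of 1.00 and 0.997 (R 4.3.3, edgeR 4.0.16, used for the factors only). A count of 0 allows up to 3 counts, or 0.166 and 0.179 CPM. Log2 ratios used a pseudocount of 1 CPM, which understates differences of low genes; folds used none. Intervals are Clopper-Pearson 95% intervals of the 2 counts given their sum. Complex sums add the counts of the subunits. Per-length levels divide CPM by the longest coding transcript in GENCODE 29, since the lengths behind the deposited FPKM matched the exon union of none of the 50 members within 1%. Of the members, 47 had identical coordinates in GENCODE 29, and 24 shared exons with another gene, 16 of them on the opposite strand only.

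The named genes are all 50 members, up to 4 genes of each further list with the largest absolute log2 ratio, and MKI67, FOXM1 and E2F1; genes named only as neighbours, overlap partners or markers were added. Of the genes this rule takes, 1, of the S phase checkpoint list, is not reported here. Older names of genes already listed account for the 4 of 32 fork factors without a row. The members and lists were chosen with earlier results of these data known. The calculation was tested on simulated data. Alternatives were other scalings (total count, upper quartile, DESeq2 1.42.0 size factors), pseudocounts of 0.1 and 5 CPM, a filter at 10 CPM or none, the deposited FPKM, and leaving out members that share exons.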

Additional observations from a re-analysis of the deposited data

How the results depend on the processing

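No paired analysis was possible because each group has 1 library and no test was made; for the same reason no library could be left out. Of 426 member values under the alternatives 424 stayed within their counting interval, and only CDC7, whose interval holds 1, changed sign (with 3 other scalings and the deposited FPKM). The other 2 are the log2 ratio of GINS4, at 1.44 with a pseudocount of 5 CPM and 1.249 from the deposited FPKM plus 1. The 426 values include those under the filter settings and without members that share exons. Neither can change the ratio of a gene that stays in, so those values were fixed in advance. The median log2 ratio of the members ranged from -0.11 to -0.05, the latter being the mean in its place. At 0.8-fold or less stood 3 members with total-count or upper-quartile scaling or from the deposited FPKM, and 4 with DESeq2 size factors. With DESeq2 size factors the summed members were at 0.948-fold. From the deposited FPKM the sums were 0.927-fold for all members, 0.878-fold for MCM2-7, 1.03-fold for helicase activation and 0.836-fold for clamp and loader. The polymerase epsilon sum went below 1 from the FPKM (0.980-fold), and that of the CDC7 kinase did so from the FPKM (0.995-fold) and with 3 other scalings (lowest 0.988-fold); both reported intervals hold 1. Without the 24 members that share exons, 1 member was at the inverse of 0.8-fold or more, 0 were past a log2 ratio of 1, since GINS4 is among those left out, and 18 of 26 were below 0. The sums were then 0.939-fold for all members, 0.928-fold for MCM2-7, 0.844-fold for polymerase alpha-primase, 1.24-fold for polymerase delta, 0.921-fold for replication protein A and 1.01-fold for nucleotide supply. The helicase activation sum turned to 0.956-fold, again without GINS4. Okazaki processing and chromatin assembly factor 1 had no members left. Alternatives chosen after seeing the data gave 0.940-fold for all members without RRM1, 0.976-fold, a turned direction, for helicase activation without GINS4, 0.845-fold for MCM2-7 without MCM4 and 0.995-fold for the loader without PCNA. By counting error alone, ratios are known to a median of 0.097 on the log2 scale either way; variation between cultures is unknown.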
